A study of Mus musculus with 21 samples.

Results

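The data are RNA-seq read counts from the livers of newborn mice. They compare 2 mice that carried an activated form of the tyrosine kinase Jak1 (Jak1 KI) with 5 wild-type (WT) mice. These 7 liver libraries were chosen by their titles, out of 21 libraries of brain, liver and skin, with 1 library per mouse and tissue. All mice were labelled C57BL/6, which the study's methods give as C57BL/6J, and were sampled at P0, the day of birth. The KI mice, labelled Jak1 KI +/-, were heterozygous for a knock-in made by CRISPR-Cas9. It holds 1 missense change, from histidine to aspartic acid in the pseudokinase domain, and 2 silent changes. The KI mice descend from a single mosaic founder male crossed with WT mice, so the allele was not limited to any cell type. WT mice had neither the missense nor the silent changes, so the 3 changes cannot be told apart here.

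JAK1 sits on the inner side of many cytokine receptors, among them those of the IL-6 family, the interferons and the receptors that use the common gamma chain or the IL-4 receptor. Once active, it phosphorylates STAT proteins, which enter the nucleus and switch on their target genes, including the SOCS genes that damp the signal. At birth the liver serves metabolism and blood formation at once. Hepatocytes are taking over glucose, fat, bile acid and nitrogen metabolism and secrete most plasma proteins, while the organ still makes red cells, granulocytes, platelets and B cells. The comparison asks which of these tasks differ in RNA between livers with and without the activating change.

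Between 30105720 and 38388133 reads were counted on genes per liver library. CPM are read counts scaled to the size of each library, among the 7 livers unless stated. Albumin RNA (Alb) stood at 87984 to 116437 CPM on that scale. With all 21 libraries of the series scaled together, it stood at 122243 to 163039 CPM in the livers and at no more than 5.70 in the brains and 25.9 in the skins, as the tissue label states. Counts per gene cannot show the substitution itself. Y-linked genes marked KI 2 and WT 3 as male and the others as female. WT 4 and WT 5 stood apart from the other WT livers in some gene groups, which are named where they bear on a result. Litters are not given in the sources used here, and the replicate numbers were not used to pair the mice in the main test.

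Of 24391 gene rows, 14966 had enough counts to test. A gene was called when the Benjamini-Hochberg adjusted p of edgeR's quasi-likelihood test was under 0.1. In all, 582 genes (3.89%) were called higher and 251 (1.68%) were called lower in the KI livers, and the median log2 fold change of all genes tested was -0.02. Of the called genes, 175 rose and 72 fell by more than 1 on the log2 scale. Both KI libraries lay above all WT libraries for 1950 tested genes (13%) and below all of them for 1697 (11.3%). That held for 580 of the 582 genes called higher and for all 251 called lower. The other two were Tmem158 and Psg22, picked out after their values were seen. Tmem158 stood at 1.77 CPM in KI 1, within the WT livers (1.60 to 3.42 CPM), and at 149 CPM in KI 2. Psg22 stood at 2.58 CPM in KI 1 and at 0.341 CPM in KI 2, level with WT 3. With 2 KI mice the calls lean on both. Without KI 1, 197 genes were called higher and 35 lower, and without KI 2, 49 and 7. Without KI 2, 581 of the 582 genes called higher and all 251 called lower kept their sign. That was all but fixed in advance, since nearly all called genes had no overlap between the groups. The longest annotated transcript had a median of 2341 bases in the genes called higher, 3731 in those called lower and 3049.5 in all genes tested, and the part of length in the calls was not tested.

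Jak1 itself, the edited gene, was counted at 196 and 208 CPM in KI 1 and KI 2 and 168, 164, 168, 173 and 147 CPM in WT 1 to WT 5. No WT liver reached either KI liver, yet the gene did not pass the test (log2 fold change 0.30, adjusted p = 0.125).

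**Figure D1:**
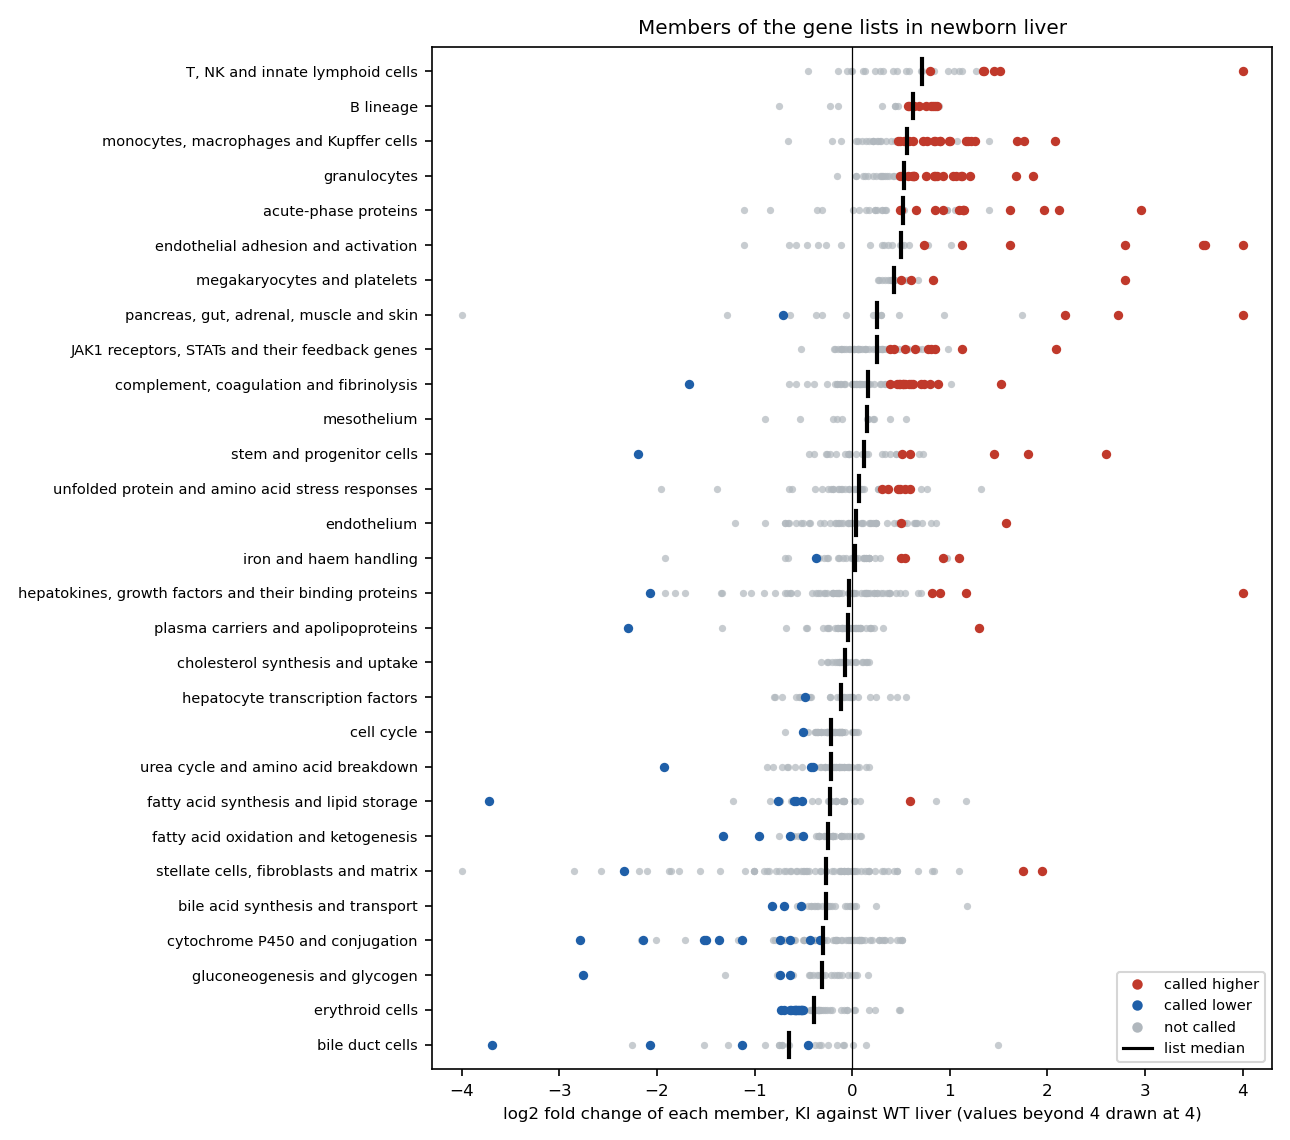
Log2 fold change between KI and WT liver (x axis) of every tested member of 29 gene lists (rows, ordered by median). Each point is 1 gene, red where called higher, blue where called lower and grey where not called, and the black bar is the list's median. Lists of blood leukocytes and acute-phase proteins lie to the right, with medians from 0.53 to 0.72, and those of erythroid cells, bile duct and hepatocyte metabolism to the left.

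The genes with the largest rise were close to silent in WT liver. Fgf23, a phosphate-lowering hormone made mainly by bone, was counted at 187 and 147 CPM in KI 1 and KI 2 and 0.0867, 0.306, 0.887, 0.377 and 0.331 CPM in WT 1 to WT 5. It was 421-fold higher in the KI mice (log2 fold change 8.75, standard error 0.35, adjusted p = 1.01e-05), and its lowest KI library held 5176 reads against at most 26 in a WT library. Fgf23 lies on chromosome 6 from 127022920 to 127031426 in mm9. Tnfrsf9, which encodes the costimulatory receptor 4-1BB, rose from 0.211 to 0.638 CPM in the WT livers to 43.3 and 51.9 CPM in the KI livers (118-fold, log2 fold change 6.84, adjusted p = 1.01e-05). The carbonic anhydrase gene Car4 stood at 21.1 and 16.97 CPM in the KI livers and at no more than 0.150 CPM in any WT liver (log2 fold change 8.91, adjusted p = 1.20e-04). For these 3 genes the lowest KI library lay far above the highest WT library, and all 14 alternatives to the main settings called them.

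The other genes with a large rise fell into a few kinds. Plac1, Rtl1 and Ctsj are known for their expression in the placenta, and Magel2 is, like Rtl1, an imprinted gene read from the paternal copy. Plac1 stood at 9.53 and 13.6 CPM in KI 1 and KI 2 and 0.0578, 0.128, 0.409, 0.314 and 0.301 CPM in WT 1 to WT 5 (log2 fold change 5.60, adjusted p = 5.10e-04). Rtl1 was counted at 3.58 and 8.30 CPM in KI 1 and KI 2 and 0.0867, 0.306, 0.205, 0.440 and 0.722 CPM in WT 1 to WT 5 (log2 fold change 4.07, adjusted p = 0.00868), and several microRNA genes overlap it, whose reads cannot be told from its own in libraries that do not mark strand. Magel2 reached 3.61 and 8.36 CPM in the KI livers, while 4 of the 5 WT livers held no read of it (log2 fold change 7.27, adjusted p = 0.00365). Ctsj, a cathepsin, stood at 4.67 and 3.84 CPM against 0.0301 to 0.471 CPM (log2 fold change 4.84, adjusted p = 0.00911). The groups did not overlap in any of these 4 genes, which was a condition for naming the genes with the largest change. The small proline-rich proteins Sprr2a3 and Sprr2b are best known from stratified epithelia. Sprr2a3 had 69 and 62 reads in the KI livers and none in the 5 WT livers, so that it was at least 109.6-fold higher against a floor of 3 reads over the WT group. Sprr2b stood at 4.48 and 5.20 CPM against 0 to 0.0628 CPM (log2 fold change 7.18, adjusted p = 1.40e-04). The Sprr2 genes are close copies of one another, and reads could be lost or split among them.

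The signalling genes in this set were Rgs4, a brake on G protein signals, at 22.8 and 15.3 CPM against 0.301 to 1.57 CPM (log2 fold change 4.86, adjusted p = 0.00258), and Disp2, related to the transporter that releases hedgehog ligands, at 3.95 and 6.74 CPM against 0.357 to 0.572 CPM (log2 fold change 3.58, adjusted p = 7.59e-04). Ch25h, the enzyme that makes 25-hydroxycholesterol, stood at 4.54 and 1.73 CPM against 0.0682 to 0.596 CPM (log2 fold change 3.60, adjusted p = 0.0247). Sele, the endothelial adhesion molecule E-selectin, stood at 5.63 and 4.12 CPM against 0.0903 to 0.648 CPM (log2 fold change 3.61, adjusted p = 0.00952). Ccr3, the eotaxin receptor of eosinophils and basophils, was at 5.14 and 2.73 CPM against 0.0314 to 0.614 CPM (log2 fold change 3.52, adjusted p = 0.0209). Gpr37, an orphan receptor, was at 1.03 and 1.99 CPM against 0 to 0.241 CPM (log2 fold change 3.63, adjusted p = 0.0417). The plot of the 15 genes per library shows the KI livers above all WT livers in each, as the rule that picked them required.

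**Figure D2:**
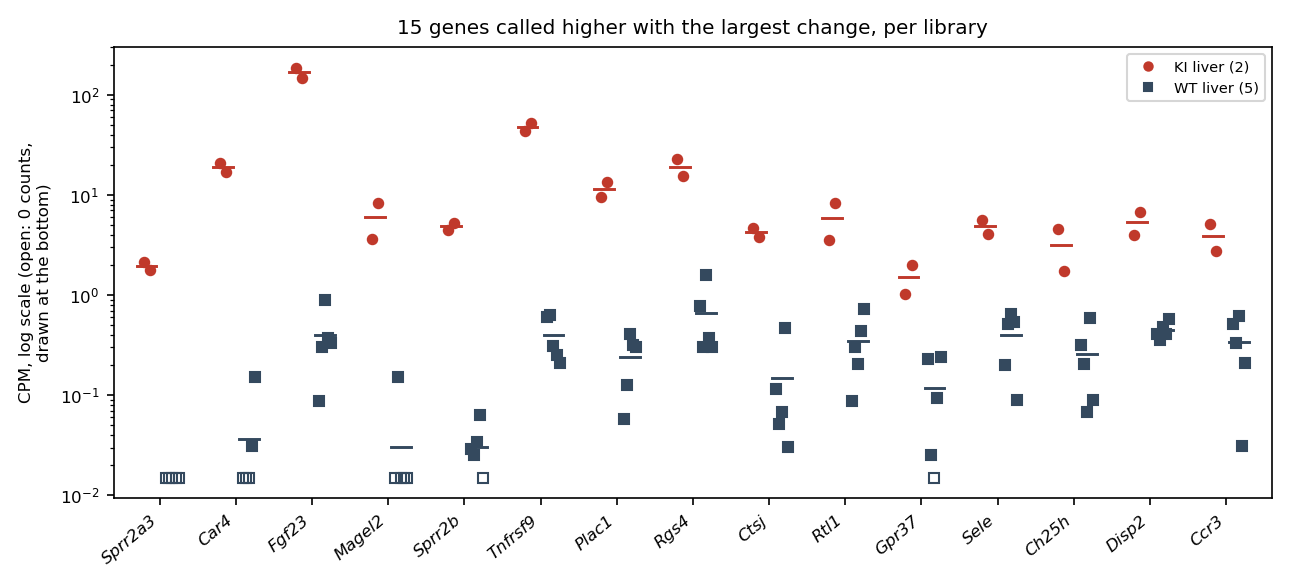
CPM (y axis, log scale) of the 15 called genes with the largest rise, ordered by log2 fold change. Circles are the 2 KI livers, squares the 5 WT livers and bars the group means, and open symbols mark libraries with 0 reads. Lack of overlap between the KI and WT libraries was a condition for picking the 15 genes. Fgf23 and Tnfrsf9 reach the highest levels.

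STAT dimers bind palindromes that read TTCNNNGAA, and STAT6 also binds TTC and GAA set 4 bases apart. RefSeq promoter windows (GRCm38.p6, 250 bases before to 50 after the gene start) were found for 13 of these 15 genes. TTCNNNGAA occurred in a window of 4 of the 13 genes, namely Fgf23, Tnfrsf9, Sele and Sprr2a3, against 9.55% of 27025 genes with a window. The form with 4 bases between TTC and GAA occurred in 2 of the 13, against 8.01%. Both patterns are their own reverse complement, so both strands were covered. The windows of 3 of the 4 genes are shown because their matches lie close to the gene start, with that of Socs3, a classical STAT3 target that also rose. Each line holds the 160 bases before the start, 5′ to 3′ on the gene's strand, with the matches in capitals.
Fgf23, chr6:127072742-127072901, plus strand: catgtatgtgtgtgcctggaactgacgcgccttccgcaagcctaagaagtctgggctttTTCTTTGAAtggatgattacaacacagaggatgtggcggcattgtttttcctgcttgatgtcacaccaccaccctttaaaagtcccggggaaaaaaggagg
Tnfrsf9, chr4:150927839-150927998, plus strand: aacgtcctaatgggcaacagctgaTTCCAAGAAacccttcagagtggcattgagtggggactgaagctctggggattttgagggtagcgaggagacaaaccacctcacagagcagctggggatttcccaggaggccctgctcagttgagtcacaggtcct
Sele, chr1:164048074-164048233, plus strand: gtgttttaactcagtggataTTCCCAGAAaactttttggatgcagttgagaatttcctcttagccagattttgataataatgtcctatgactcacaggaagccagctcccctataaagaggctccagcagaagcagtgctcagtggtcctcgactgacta
Socs3, chr11:117969367-117969526, minus strand: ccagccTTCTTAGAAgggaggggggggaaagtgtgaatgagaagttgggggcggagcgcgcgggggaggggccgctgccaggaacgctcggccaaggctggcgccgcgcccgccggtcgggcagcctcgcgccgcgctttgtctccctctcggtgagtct
The matches begin 101, 136, 140 and 154 bases before the respective start, and the Tnfrsf9 window belongs to the second of its listed starts. A match of these letters is not evidence of binding. Socs3 was counted at 75.7 and 82.7 CPM in KI 1 and KI 2 and 26.2, 20.3, 13.7, 23.8 and 9.03 CPM in WT 1 to WT 5 (log2 fold change 2.09, adjusted p = 0.012), with no overlap between the groups.

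Among the genes that fell, those with the largest change formed a mixed set. Galnt16, a glycosyltransferase gene, had no read in either KI liver and 12, 104, 8, 85 and 44 reads in the WT livers, at least 32.6-fold lower against a floor of 3 reads over the KI group (adjusted p = 0.0734). Aoc3, an amine oxidase of smooth muscle and endothelium, stood at 0.0311 and 0.0853 CPM in the KI livers and 0.444 to 3.78 CPM in the WT livers (log2 fold change -5.03, adjusted p = 0.0403). Extl1, a heparan sulfate enzyme, stood at 0.0311 and 0.171 CPM against 0.751 to 3.65 CPM (log2 fold change -4.29, adjusted p = 0.0345), and Adamts16, a secreted metalloprotease, at 0.187 and 0.0853 CPM against 1.30 to 3.98 CPM (log2 fold change -4.20, adjusted p = 0.0186). Lrtm1 was counted at 0.809 and 1.53 CPM in KI 1 and KI 2 and 9.31, 9.98, 15.4, 13.9 and 11.1 CPM in WT 1 to WT 5 (log2 fold change -3.34, adjusted p = 0.00226). It lies inside Cacna2d3, and the fall held under all 14 alternatives.

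Several of the lowered genes belong to vessel walls, ducts and matrix, and their WT levels were uneven. Gja5, the connexin 40 gene of arterial endothelium, stood at 0.560 and 0.455 CPM in KI 1 and KI 2 and 6.70, 8.80, 7.23, 7.22 and 1.53 CPM in WT 1 to WT 5 (log2 fold change -3.63, adjusted p = 0.0271), and the transcription factor gene Mecom at 0.685 and 0.966 CPM in KI 1 and KI 2 and 4.71, 4.93, 3.96, 3.99 and 1.38 CPM in WT 1 to WT 5 (log2 fold change -2.19, adjusted p = 0.0551). In both, WT 5 was nearer to the KI livers than to the other WT livers. Ehf, an epithelial transcription factor, stood at 0.249 and 0.256 CPM in KI 1 and KI 2 and 0.780, 4.39, 0.989, 5.34 and 4.93 CPM in WT 1 to WT 5 (log2 fold change -3.68, adjusted p = 0.0801), and the phosphoglucomutase-like gene Pgm5 at 0.187 and 0.256 CPM in KI 1 and KI 2 and 0.636, 2.42, 0.853, 2.61 and 1.93 CPM in WT 1 to WT 5 (log2 fold change -2.91, adjusted p = 0.068). In both, WT 1 and WT 3 lay between the KI livers and the other WT livers. Col13a1, a transmembrane collagen, was more even, at 1.65 and 1.45 CPM in KI 1 and KI 2 and 7.05, 9.60, 10.3, 7.66 and 5.45 CPM in WT 1 to WT 5 (log2 fold change -2.37, adjusted p = 0.00568). Ltbp2, a microfibril protein, stood at 1.90 and 1.31 CPM against 3.17 to 12.1 CPM (log2 fold change -2.33, adjusted p = 0.052). Tnnt2, the cardiac troponin T gene, stood at 0.996 and 0.597 CPM against 1.47 to 5.36 CPM (log2 fold change -2.13, adjusted p = 0.0788). The remaining ones, Prss35, Fam198a and Shisa9, had log2 fold changes of -2.08, -2.35 and -3.09 (adjusted p = 0.0756, 0.0696 and 0.0985). The calls of Shisa9 and Ehf were the least stable of those named in this paragraph, holding in 6 and 7 of 14 alternatives. Of the genes that fell most, 14 of 20 had a promoter window, none with TTCNNNGAA and 1 (Prss35) with the wider form.

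Among genes of hepatocyte metabolism the calls were nearly all falls. Over 7 lists that cover glucose, fat, cholesterol, bile acid, amino acid and drug metabolism, 28 of 270 tested genes were called lower and 1 higher (10.4% and 0.370%, against 1.68% and 3.89% of all genes tested). Thrsp, known as Spot 14, which promotes fat synthesis, was counted at 0.934 and 1.25 CPM in KI 1 and KI 2 and 13.4, 12.8, 25.2, 12.1 and 8.87 CPM in WT 1 to WT 5 and was 13.2-fold lower in the KI livers (log2 fold change -3.72, standard error 0.45, adjusted p = 0.00566). Every WT liver lay well above the KI livers and WT 3 was the highest. In mm9, Thrsp lies on chromosome 7 from 104561448 to 104566240.

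Of 23 tested genes listed under gluconeogenesis and glycogen, 3 fell (13%) and none rose, with a median log2 fold change of -0.31. Among them was Pklr, pyruvate kinase of liver and red cells, at 204 and 223 CPM against 313 to 416 CPM (log2 fold change -0.73, adjusted p = 0.0299). Pklr acts in glycolysis, not gluconeogenesis, and which cells its reads came from was not tested. Gbe1, the glycogen branching enzyme, fell as well, at 70.4 and 54.7 CPM against 76.6 to 108 CPM (log2 fold change -0.64, adjusted p = 0.0693). Pck1, the first committed enzyme of gluconeogenesis, was counted at 1148 and 1499 CPM in KI 1 and KI 2 and 879.8, 1318, 186, 3301 and 217 CPM in WT 1 to WT 5, and G6pc, which releases free glucose, at 523 and 679 CPM in KI 1 and KI 2 and 710.1, 1004, 206, 2429 and 235 CPM in WT 1 to WT 5. Both genes were at their highest in WT 4 and at their lowest in WT 3 and WT 5, a spread among WT livers far wider than the difference between the groups (log2 fold changes 0.16 and -0.61, adjusted p = 0.949 and 0.753). No gene of this list was called without KI 1 or without KI 2.

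Of 34 tested genes of fatty acid synthesis and lipid storage, 5 fell and 1 rose (14.7% and 2.94%, median -0.23). Acacb and Acaca, the acetyl-CoA carboxylases, stood at 38.6 and 42.8 CPM against 55.5 to 83.5 CPM (log2 fold change -0.76, adjusted p = 0.0337) and at 26.9 and 32.9 CPM against 39.8 to 50.7 CPM (log2 fold change -0.59, adjusted p = 0.0567). Scd1, the stearoyl-CoA desaturase, stood at 381 and 455 CPM against 499 to 694 CPM (log2 fold change -0.52, adjusted p = 0.0939), and Gpam, which starts glycerolipid assembly, at 117 and 154 CPM against 162 to 226 CPM (log2 fold change -0.58, adjusted p = 0.0901). Dgat1, which completes triglycerides, rose (40.9 and 37.8 CPM against 20.8 to 31.2 CPM, log2 fold change 0.59, adjusted p = 0.0753). Fasn, the fatty acid synthase gene, was counted at 218 and 258 CPM in KI 1 and KI 2 and 467, 465, 414, 228 and 416 CPM in WT 1 to WT 5 and did not pass (log2 fold change -0.74, adjusted p = 0.168): WT 4 lay between the KI livers, while the other WT livers lay above both.

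Of 36 tested genes of fatty acid oxidation and ketogenesis, 4 fell (11.1%), none rose, and 33 had a log2 fold change under 0 (median -0.25). Cyp4a14, an omega-hydroxylase and a PPARα target, stood at 149 and 109.7 CPM in KI 1 and KI 2 and 262, 306, 330.4, 401 and 316 CPM in WT 1 to WT 5 (log2 fold change -1.32, standard error 0.18, adjusted p = 0.0093). Ehhadh and Acaa1b, enzymes of peroxisomal oxidation, were at 159 and 167 CPM against 231 to 280.4 CPM (log2 fold change -0.64, adjusted p = 0.0162) and 37.5 and 36.9 CPM against 45.6 to 58.98 CPM (log2 fold change -0.50, adjusted p = 0.0604), and the thioesterase gene Acot1 at 8.28 and 7.31 CPM against 10.4 to 21.8 CPM (log2 fold change -0.95, adjusted p = 0.0947). Cpt1a, the gate of mitochondrial oxidation, showed no difference past the test (240.2 and 277 CPM against 238 to 372 CPM, log2 fold change -0.10, adjusted p = 0.802). The 24 tested genes of cholesterol synthesis and uptake had no call in either direction (median -0.07).

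Of 29 tested genes of bile acid synthesis and transport, 3 fell (10.3%) and none rose (median -0.27). They were Slco1b2, the uptake carrier OATP1B2, at 178 and 192 CPM against 264 to 406 CPM (log2 fold change -0.82, adjusted p = 0.0403), Cyp39a1, an oxysterol hydroxylase, at 132 and 137 CPM against 166 to 255 CPM (log2 fold change -0.70, adjusted p = 0.073), and Abcb4, the phospholipid exporter of bile, at 126 and 142 CPM against 172 to 222 CPM (log2 fold change -0.52, adjusted p = 0.0666). Cyp7a1, the rate-limiting enzyme of bile acid synthesis, was counted at 108 and 128 CPM in KI 1 and KI 2 and 94.5, 100.1, 79.1, 429 and 144 CPM in WT 1 to WT 5. Its WT 4 value lay far above the other livers, and the gene did not pass (log2 fold change -0.52, adjusted p = 0.703). Of 48 tested genes of the urea cycle and amino acid breakdown, 3 fell (6.25%) and none rose (median -0.22). Tdo2, which opens tryptophan breakdown, was at 1.37 and 0.568 CPM against 2.50 to 4.69 CPM (log2 fold change -1.92, adjusted p = 0.0384). Afmid, which acts next in that route, was at 31.8 and 30.1 CPM against 38.8 to 46.1 CPM (log2 fold change -0.43, adjusted p = 0.0572), and Uroc1, of histidine breakdown, at 123 and 122 CPM against 155 to 169.8 CPM (log2 fold change -0.40, adjusted p = 0.0401). Cps1, the entry enzyme of the urea cycle, was lower in both KI livers than in any WT liver but did not pass (2061 and 1817 CPM against 2103 to 4031 CPM, log2 fold change -0.66, adjusted p = 0.162).

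The list of cytochrome P450 and conjugation genes, the longest of the metabolic lists, held the most lowered genes, 10 of 78 tested (12.8%). None was raised (median -0.29). The share called lower was larger in fatty acid synthesis and lipid storage (14.7%) and in gluconeogenesis and glycogen (13%). Cyp2e1, an ethanol- and ketone-oxidising enzyme that is switched on at birth, was counted at 223 and 253 CPM in KI 1 and KI 2 and 574, 576, 876, 602 and 776 CPM in WT 1 to WT 5 and was 2.86-fold lower in the KI livers (log2 fold change -1.52, standard error 0.20, adjusted p = 0.00713). Cyp3a25 stood at 34.2 and 29.1 CPM in KI 1 and KI 2 and 59.8, 89.2, 113, 105 and 80.4 CPM in WT 1 to WT 5 (log2 fold change -1.50, adjusted p = 0.0141). Cyp26b1, which breaks down retinoic acid, was at 0.560 and 0.256 CPM against 0.572 to 4.74 CPM (log2 fold change -2.79, adjusted p = 0.0962) and Cyp3a41a at 0.249 and 0.142 CPM against 0.664 to 1.19 CPM (log2 fold change -2.14, adjusted p = 0.0698). The Cyp3a genes are near copies and their counts may be split. KI and WT livers did not overlap in these 4 genes, though WT 5 was close to KI 1 for Cyp26b1. Cyp1a2 varied more than 10-fold within both groups and did not pass (log2 fold change -0.62, adjusted p = 0.768). Hnf4a, a transcription factor that maintains hepatocyte identity, was not called (log2 fold change -0.16, adjusted p = 0.655). The summed level of Alb, Afp, Ttr, Apoa1 and Hnf4a was 129168 to 131957 CPM in the KI livers and 133479 to 163568 CPM in the WT livers, lower in both KI livers than in any WT liver, and none of the 5 was called. When a KI mouse was left out, most called genes of the metabolic lists no longer passed the test. Every one kept its sign, which was all but fixed by the lack of overlap between the groups. Of the genes called in the P450 list, 3 were still called without KI 1 and 0 without KI 2, in fatty acid synthesis 1 and 1, and in fatty acid oxidation 1 and 0. The medians without KI 1 and without KI 2 were -0.21 and -0.31 for the P450 list, -0.23 and -0.34 for fatty acid synthesis, -0.30 and -0.19 for fatty acid oxidation and -0.42 and -0.18 for gluconeogenesis and glycogen. Thrsp kept its call in every one of the 14 alternatives, and Cyp2e1, Cyp3a25 and Cyp4a14 in 12.

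**Figure D3:**
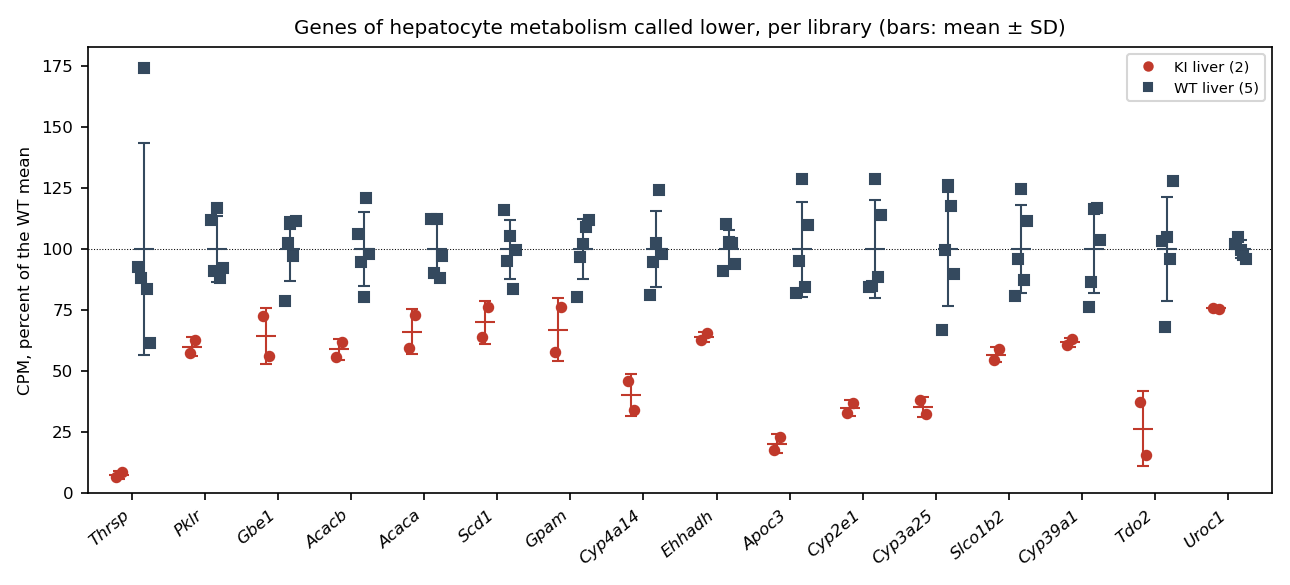
CPM of 16 lowered genes of hepatocyte metabolism as a percentage of the WT mean (y axis, linear from 0), with each KI liver as a circle, each WT liver as a square and bars for the mean ± SD of 2 KI and 5 WT livers. Thrsp and Apoc3 lie furthest below the WT mean. No KI liver reaches a WT liver in any of the 16 genes, as held for all 251 genes called lower.

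Secreted proteins split by class. Plasma carriers and apolipoproteins had 1 gene higher and 1 lower among 42 tested (median -0.04). Each is a share of 2.38%, near the 3.89% and 1.68% of all genes tested. The lower one was Apoc3, an inhibitor of lipoprotein lipase, at 27.2 and 35.7 CPM in KI 1 and KI 2 and 127, 147, 199, 131 and 170.0 CPM in WT 1 to WT 5, 4.92-fold lower in the KI livers (log2 fold change -2.30, standard error 0.21, adjusted p = 0.00158). The higher one was Serpina7, thyroxine-binding globulin, at 206 and 228 CPM in KI 1 and KI 2 and 94.2, 76.9, 70.2, 85.4 and 114 CPM in WT 1 to WT 5 (log2 fold change 1.30, standard error 0.16, adjusted p = 0.00569). Alb and Afp did not pass (log2 fold change -0.18, adjusted p = 0.448, and log2 fold change -0.25, adjusted p = 0.388). Acute-phase proteins, by contrast, had 13 of 36 tested genes higher (36.1%) and none lower (median 0.53). The largest rises were in copies of the serine protease inhibitor A3 cluster: Serpina3h went from 0.0903 to 0.408 CPM to 2.09 and 2.02 CPM (log2 fold change 2.95, adjusted p = 0.012), Serpina3g from 4.18 to 12.7 CPM to 37.7 and 44.6 CPM (log2 fold change 2.11, adjusted p = 0.01) and Serpina3i from 0.636 to 1.30 CPM to 3.58 and 4.75 CPM (log2 fold change 1.97, adjusted p = 0.0125). Counts may be split among these copies. Serpina3n, the most abundant called copy, stood at 1491 and 1222 CPM against 545 to 711 CPM (log2 fold change 1.13, adjusted p = 0.00365).

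Other acute-phase genes were among the most abundant that rose. Fgl1, a fibrinogen-like hepatokine, was counted at 1676 and 1452 CPM in KI 1 and KI 2 and 671, 638, 709, 675 and 847 CPM in WT 1 to WT 5 (log2 fold change 1.14, standard error 0.12, adjusted p = 0.0034). Lrg1, a leucine-rich glycoprotein of plasma, was counted at 278 and 277 CPM in KI 1 and KI 2 and 92.3, 83.5, 105, 71.6 and 101 CPM in WT 1 to WT 5 (log2 fold change 1.62, standard error 0.13, adjusted p = 7.59e-04). A2m, the protease trap α2-macroglobulin, stood at 1856 and 1807 CPM against 768 to 1245 CPM (log2 fold change 0.85, adjusted p = 0.0454), and Itih3, a hyaluronan-linked inter-α inhibitor chain, at 4922 and 5230.4 CPM against 3109 to 4027 CPM (log2 fold change 0.49, adjusted p = 0.0734). KI and WT livers did not overlap for any of these 4 genes. Saa1, a serum amyloid gene, was close to silent in both groups, at no more than 0.370 CPM in any library, and its near-identical copy could take away reads.

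Of 59 tested genes of complement, coagulation and fibrinolysis, 15 were higher and 1 lower (25.4% and 1.69%, median 0.16). C9, of the membrane attack complex, stood at 6.72 and 9.47 CPM against 1.68 to 4.19 CPM (log2 fold change 1.53, adjusted p = 0.0441), Serpina10, the protein Z-dependent inhibitor, at 239.8 and 239 CPM against 113 to 158 CPM (log2 fold change 0.88, adjusted p = 0.00992), and C4b at 606 and 671 CPM against 321 to 416 CPM (log2 fold change 0.80, adjusted p = 0.00992). Kng1, kininogen, was the most abundant of them, at 3727 and 3765 CPM against 2326 to 2817 CPM (log2 fold change 0.52, adjusted p = 0.0293). The lower gene was Serpina5, the protein C inhibitor, at 1.93 and 2.59 CPM against 4.94 to 8.36 CPM (log2 fold change -1.67, adjusted p = 0.0153). C4b has a close copy in the mouse genome, and C1ra (log2 fold change 0.38, adjusted p = 0.0784) overlaps C1rb in the annotation. Among 67 hepatokines, growth factors and their binding proteins, 4 rose and 1 fell (median -0.04), shares of 5.97% and 1.49% beside 3.89% and 1.68% of all genes. Next to Fgf23, the raised ones were Enho, which encodes adropin, at 31.8 and 26.9 CPM against 8.98 to 17.4 CPM (log2 fold change 1.16, adjusted p = 0.0233), the lymphatic growth factor Vegfc at 15.7 and 16.1 CPM against 7.58 to 9.42 CPM (log2 fold change 0.90, adjusted p = 0.0093), and Pdgfb at 9.43 and 9.07 CPM against 3.27 to 6.28 CPM (log2 fold change 0.82, adjusted p = 0.0975). Igf1 and Igf2, the main growth factors of the fetal and postnatal liver, did not pass (log2 fold change -0.16, adjusted p = 0.65, and log2 fold change -0.13, adjusted p = 0.725). In iron and haem handling, 4 of 37 genes were higher and 1 lower (10.8% and 2.7%, median 0.03). Hamp, hepcidin, was counted at 59.7 and 48.4 CPM in KI 1 and KI 2 and 22.4, 40.4, 22.3, 21.1 and 20.5 CPM in WT 1 to WT 5 (log2 fold change 1.09, adjusted p = 0.0536), with WT 2 well above the other WT livers. Cp, the ferroxidase ceruloplasmin, stood at 1391 and 1813 CPM against 723 to 1008 CPM (log2 fold change 0.93, adjusted p = 0.0146), Hpx, haemopexin, at 1614 and 1827 CPM against 1079 to 1393 CPM (log2 fold change 0.50, adjusted p = 0.0602), and Hfe at 46.6 and 48.5 CPM against 28.4 to 40.1 CPM (log2 fold change 0.54, adjusted p = 0.0685). The lower gene was Aco1, iron regulatory protein 1 (log2 fold change -0.37, adjusted p = 0.0994). Of the 13 acute-phase genes called, 7 were still called without KI 1 and 3 without KI 2 (medians 0.55 and 0.46), and of the 16 of complement and coagulation 3 and 0 (medians 0.21 and 0.19).

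The calls among genes of red cell making were all falls, and those among genes of granulocytes, macrophages, lymphocytes and platelets were all rises. In whole-liver RNA, fewer cells of a type and less RNA per cell cannot be told apart. Of 52 tested erythroid genes, 14 fell (26.9%), none rose, and 46 had a log2 fold change under 0 (median -0.39). Several encode proteins of the red cell membrane and its skeleton: Slc4a1, band 3, stood at 1373 and 1376 CPM in KI 1 and KI 2 and 2313, 1765, 1992, 2054 and 1642 CPM in WT 1 to WT 5 (log2 fold change -0.51, adjusted p = 0.0956), Sptb, β-spectrin, at 264 and 268 CPM in KI 1 and KI 2 and 482, 387, 442, 388 and 355 CPM in WT 1 to WT 5 (log2 fold change -0.63, adjusted p = 0.0401), and Ank1, ankyrin, at 147 and 155 CPM against 209.7 to 286 CPM (log2 fold change -0.69, adjusted p = 0.0317). In each, both KI livers lay below all WT livers and WT 1 was the highest. Slc25a37, the mitochondrial iron importer mitoferrin-1, stood at 636 and 683 CPM against 859 to 1208 CPM (log2 fold change -0.56, adjusted p = 0.0829), Ermap, a blood group protein, at 228 and 221 CPM against 304 to 409 CPM (log2 fold change -0.58, adjusted p = 0.0518), and Sphk1, a sphingosine kinase, at 8.40 and 9.61 CPM against 13.3 to 16.4 CPM (log2 fold change -0.73, adjusted p = 0.029). Xpo7, an exporter used during red cell maturation, fell as well (log2 fold change -0.55, adjusted p = 0.0588). The erythroid regulators Gata1 and Klf1 did not pass (log2 fold change -0.33, adjusted p = 0.372, and log2 fold change -0.58, adjusted p = 0.226), and WT 4 lay within or below the KI livers in both. The summed level of 5 erythroid markers was 2407 to 2518 CPM in the KI livers and 2842 to 3930.1 CPM in the WT livers. None of the erythroid calls held without KI 1 or without KI 2, where 0 of 52 genes were called, and the median stayed between -0.49 and -0.33 over all alternatives. Of 52 cell cycle genes, 48 had a log2 fold change under 0 (median -0.22), as had 7965 of the 14966 genes tested. Only Mki67 was called, a share of 1.92% that is near the 1.68% of all genes (625 and 613 CPM against 769 to 1071 CPM, log2 fold change -0.50, adjusted p = 0.0955). Top2a was not (log2 fold change -0.26, adjusted p = 0.435).

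Of 40 tested granulocyte genes, 19 were higher (47.5%), none was lower, and 39 had a log2 fold change above 0 (median 0.53). The largest rises belonged to basophils and mast cells. Mcpt8, a basophil protease, was counted at 8.09 and 8.95 CPM in KI 1 and KI 2 and 3.01, 1.74, 2.46, 2.26 and 2.35 CPM in WT 1 to WT 5 (log2 fold change 1.85, standard error 0.21, adjusted p = 0.00454), and Prss34, another, at 9.71 and 12.8 CPM in KI 1 and KI 2 and 4.45, 3.14, 3.48, 2.89 and 3.64 CPM in WT 1 to WT 5 (log2 fold change 1.67, standard error 0.20, adjusted p = 0.00485). The neutrophil proteins S100a9 and S100a8 were the most abundant, at 2343 and 2824 CPM against 1432 to 1936 CPM (log2 fold change 0.61, adjusted p = 0.0403) and 1497 and 1929 CPM against 940.4 to 1277 CPM (log2 fold change 0.64, adjusted p = 0.0519). Csf3r, the G-CSF receptor, was at 38.1 and 51.6 CPM against 14.6 to 26.4 CPM (log2 fold change 1.20, adjusted p = 0.026) and Trem1, an activating receptor, at 27.9 and 29.3 CPM against 9.21 to 19.2 CPM (log2 fold change 1.13, adjusted p = 0.0558). The early granule proteases Elane and Mpo did not pass (log2 fold change 0.22, adjusted p = 0.623, and log2 fold change 0.33, adjusted p = 0.421), and their KI values lay within the WT range except for Mpo in KI 1. The summed level of 5 granulocyte markers was 3394 to 3934 CPM in the KI livers and 2179 to 2937 CPM in the WT livers. Of the 19 called genes, 14 were still called without KI 1 and 2 without KI 2 (medians 0.68 and 0.43).

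Of 47 tested genes of monocytes, macrophages and Kupffer cells, 22 were higher (46.8%) and none lower (median 0.56). Arg2, mitochondrial arginase, stood at 5.88 and 4.89 CPM against 0.542 to 1.89 CPM (log2 fold change 2.07, adjusted p = 0.0299), Clec4d, a C-type lectin, at 16.4 and 22.3 CPM against 3.65 to 6.37 CPM (log2 fold change 1.76, adjusted p = 0.00544), Gpnmb at 3.36 and 2.67 CPM against 0.451 to 1.35 CPM (log2 fold change 1.68, adjusted p = 0.0462), and Ccr2, the chemokine receptor of inflammatory monocytes, at 19.8 and 32.3 CPM against 7.41 to 14.2 CPM (log2 fold change 1.26, adjusted p = 0.0341). Adgre1, which encodes F4/80, was higher (104 and 98.9 CPM against 53.8 to 77.5 CPM, log2 fold change 0.56, adjusted p = 0.0716). Clec4f, a lectin restricted to Kupffer cells, was not called (212 and 188 CPM against 131 to 203 CPM, log2 fold change 0.25, adjusted p = 0.421). The summed level of 5 Kupffer cell markers was 611 to 705 CPM in the KI livers and 379.5 to 538 CPM in the WT livers. Of the 22 called genes, 10 were still called without KI 1 and 2 without KI 2 (medians 0.54 and 0.63).

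Of 21 tested B-lineage genes, 10 were higher (47.6%) and none lower (median 0.62). Fcrla stood at 26.1 and 26.4 CPM in KI 1 and KI 2 and 16.01, 14.1, 15.9, 12.1 and 13.7 CPM in WT 1 to WT 5 (log2 fold change 0.87, adjusted p = 0.0111) and Vpreb3 at 26.7 and 24.3 CPM against 12.1 to 17.3 CPM (log2 fold change 0.85, adjusted p = 0.0197). The signalling chains of the B-cell receptor, Cd79a and Cd79b, were at 21.3 and 20.1 CPM against 10.6 to 15.8 CPM (log2 fold change 0.62, adjusted p = 0.0758) and 39.7 and 42.1 CPM against 21.3 to 31.4 CPM (log2 fold change 0.68, adjusted p = 0.034). Blk, a kinase of that receptor, was at 16.9 and 13.8 CPM against 7.19 to 10.7 CPM (log2 fold change 0.83, adjusted p = 0.0403) and Il7r, which signals through JAK1, at 18.9 and 18.1 CPM against 9.04 to 13.7 CPM (log2 fold change 0.81, adjusted p = 0.0343). The rises were even in size, from 1.54- to 1.83-fold in the genes named here, and the groups did not overlap in any of them. Of the 10 called genes, 1 was still called without KI 1 and 0 without KI 2 (medians 0.60 and 0.65). In 31 tested genes of T, NK and innate lymphoid cells, 6 were higher, Tnfrsf9 among them, and none lower (median 0.72), with 2 still called without KI 1 and 1 without KI 2. The receptors Klrb1b and Klrk1 and the chemokine Ccl5 were scarce, at 2.83 and 2.53 CPM against 0.546 to 1.23 CPM (log2 fold change 1.51, adjusted p = 0.048), 2.77 and 3.01 CPM against 0.910 to 1.39 CPM (log2 fold change 1.35, adjusted p = 0.0323) and 2.71 and 4.86 CPM against 1.02 to 1.85 CPM (log2 fold change 1.45, adjusted p = 0.051). Cd3d, part of the T-cell receptor complex, stayed under 1 CPM in every library (log2 fold change 0.32, adjusted p = 0.697). The 6 genes called in this list were 19.4% of those tested.

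Among 28 stem and progenitor cell genes, 5 rose and 1, Mecom, fell (17.9% and 3.57%, median 0.12). The IL-3, IL-5 and GM-CSF receptor chains rose most. Csf2rb2, the IL-3-specific β chain, was counted at 102 and 107 CPM in KI 1 and KI 2 and 18.6, 18.02, 15.9, 20.9 and 12.5 CPM in WT 1 to WT 5 and was 6.08-fold higher (log2 fold change 2.60, standard error 0.16, adjusted p = 1.20e-04). Csf2rb, the common β chain, was counted at 101 and 101 CPM in KI 1 and KI 2 and 32.7, 41.4, 29.9, 47.97 and 31.9 CPM in WT 1 to WT 5 (log2 fold change 1.45, standard error 0.17, adjusted p = 0.00457). They are neighbours and close copies, on chromosome 15 from 78112947 to 78136052 and from 78156420 to 78184277 in mm9, so reads may be split between them. Ly6a, which encodes the stem cell antigen Sca-1, rose from 3.99 to 5.33 CPM to 15.5 and 16.7 CPM (log2 fold change 1.80, adjusted p = 8.89e-04). Csf2rb2, Csf2rb and Ly6a were called under each of the 14 alternatives. Spi1, the myeloid regulator PU.1, was at 62.8 and 77.1 CPM against 43.2 to 56.1 CPM (log2 fold change 0.59, adjusted p = 0.0461), while Kit and Cd34 did not pass (log2 fold change -0.17, adjusted p = 0.521, and log2 fold change 0.31, adjusted p = 0.679). All 24 tested megakaryocyte and platelet genes had a log2 fold change above 0 (median 0.43), and 4 were called higher (16.7%). Selp, P-selectin, which endothelium also makes, was counted at 23.8 and 23.1 CPM in KI 1 and KI 2 and 4.74, 3.85, 2.49, 2.48 and 3.22 CPM in WT 1 to WT 5 (log2 fold change 2.80, standard error 0.23, adjusted p = 7.59e-04). Itga2b, the platelet integrin αIIb, stood at 141 and 168 CPM against 64.5 to 114 CPM (log2 fold change 0.83, adjusted p = 0.0456) and F13a1 at 63.002 and 89.7 CPM against 45.5 to 57.9 CPM (log2 fold change 0.60, adjusted p = 0.0684). Pf4 and Ppbp, platelet chemokines, did not pass (log2 fold change 0.43, adjusted p = 0.307, and log2 fold change 0.27, adjusted p = 0.634), and the WT 1 liver was level with KI 1 over this list.

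**Figure D4:**
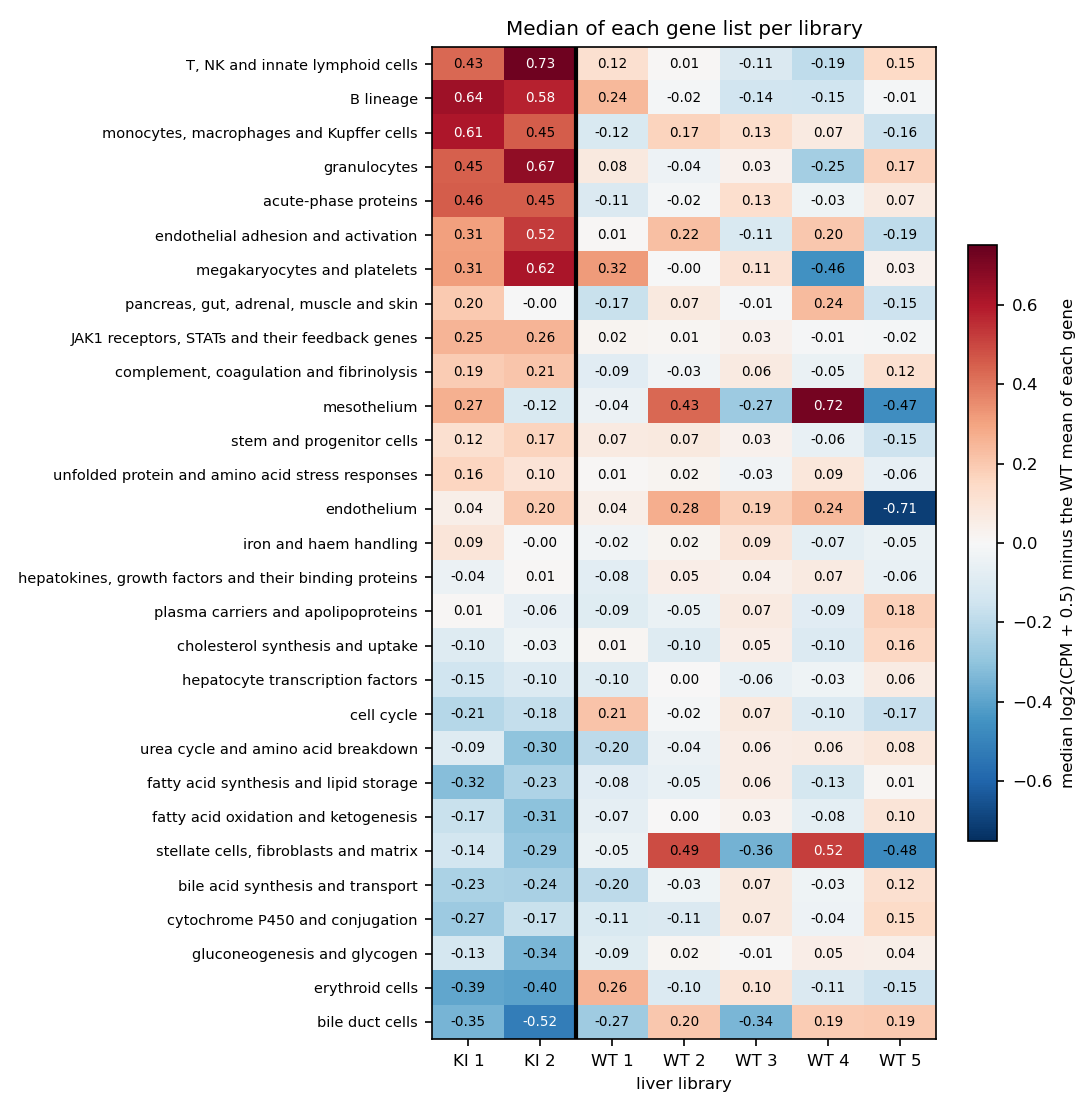
Median over each gene list (rows) of log2(CPM + 0.5) minus the WT mean of each gene, for the 7 liver libraries (columns, KI left of the line), in colour and in numbers. Both KI livers stand above all WT livers for the leukocyte, acute-phase and JAK1 lists and below all of them for erythroid cells, while matrix, mesothelium and endothelium differ more among the WT livers than between the groups.

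The levels of several vessel and stroma lists varied among WT livers. Of 56 tested endothelial genes, 2 were higher and none lower (median 0.04), near the shares of all genes tested (3.57% against 3.89%, and 0 against 1.68%). Fcgr2b, an Fc receptor of sinusoidal endothelium and B cells, was counted at 57.2 and 52.1 CPM in KI 1 and KI 2 and 22.6, 18.9, 19.7, 17.4 and 13.1 CPM in WT 1 to WT 5 (log2 fold change 1.58, standard error 0.17, adjusted p = 0.0034). Clec1b, the podoplanin receptor of platelets, was at 43.6 and 40.1 CPM against 24.3 to 34.7 CPM (log2 fold change 0.50, adjusted p = 0.0899). Pecam1 and Cdh5 lay above all WT livers in both KI livers but did not pass (log2 fold change 0.72, adjusted p = 0.219, and log2 fold change 0.49, adjusted p = 0.372). WT 5 had by far the lowest endothelial level of the 7 livers, with a list median of -0.71 against the WT mean, and without it 7 endothelial genes were called higher and 5 lower. Genes of endothelial adhesion and activation had 7 of 26 members higher (26.9%) and none lower (median 0.50): Tnfrsf9, Sele, Ch25h, Selp, Lrg1 and Il4ra, given elsewhere, and Plaur, the urokinase receptor (26.8 and 30.8 CPM against 13.8 to 23.9 CPM, log2 fold change 0.73, adjusted p = 0.098). Tnfrsf9, Selp, Lrg1, Il4ra and Plaur are also counted as called in other lists, so the counts of those lists are not separate from this one. Of these 7 genes, 5 were still called without KI 1 and 5 without KI 2.

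Of 72 tested genes of stellate cells, fibroblasts and matrix, 2 were higher and 1, Ltbp2, was lower (median -0.27), shares of 2.78% and 1.39% that are near those of all genes tested. The higher ones were Adamts4, a proteoglycan-cleaving protease, at 7.31 and 8.19 CPM in KI 1 and KI 2 and 2.66, 2.63, 2.22, 2.10 and 0.451 CPM in WT 1 to WT 5 (log2 fold change 1.94, adjusted p = 0.0642), and Timp1, an inhibitor of matrix proteases, at 5.07 and 5.94 CPM in KI 1 and KI 2 and 1.21, 1.71, 1.36, 2.57 and 1.29 CPM in WT 1 to WT 5 (log2 fold change 1.75, adjusted p = 0.02). Des and Lrat, stellate cell markers, did not pass (log2 fold change -0.04, adjusted p = 0.959, and log2 fold change 0.31, adjusted p = 0.715). The list medians were 0.49 and 0.52 in WT 2 and WT 4 and -0.36 and -0.48 in WT 3 and WT 5, around KI values of -0.14 and -0.29. Mesothelial genes followed the same WT order, with no call among 12. Of 23 tested bile duct genes, 4 fell (17.4%) and none rose (median -0.65). Spp1, osteopontin, was counted at 27.9 and 29.1 CPM in KI 1 and KI 2 and 71.8, 152, 79.6, 167 and 129.9 CPM in WT 1 to WT 5 (log2 fold change -2.07, standard error 0.35, adjusted p = 0.0191). Pkhd1, the fibrocystin gene, stood at 3.64 and 3.13 CPM against 5.12 to 9.09 CPM (log2 fold change -1.13, adjusted p = 0.0529) and Krt23 at 12.7 and 10.9 CPM against 15.1 to 17.7 CPM (log2 fold change -0.46, adjusted p = 0.0946), and Ehf is given above. The duct keratins Krt7 and Krt19 did not pass. Krt19 stood at 4.98 and 2.93 CPM in KI 1 and KI 2 and 3.70, 10.5, 3.10, 11.2 and 8.12 CPM in WT 1 to WT 5 (log2 fold change -0.89, adjusted p = 0.41), with WT 1 and WT 3 as low as the KI livers. The list had no call without KI 1 or without KI 2.

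Of 54 genes for JAK1 receptors, STATs and their feedback, 9 were higher and none lower (median 0.25), of which 4 were still called without KI 1 and 1 without KI 2. After Socs3 the largest rises were in Il4ra, the IL-4 and IL-13 receptor chain, at 117 and 117 CPM in KI 1 and KI 2 and 51.3, 54.5, 49.99, 65.7 and 46.4 CPM in WT 1 to WT 5 (log2 fold change 1.13, standard error 0.12, adjusted p = 0.00365), and Il2rg, the common gamma chain, at 14.3 and 15.5 CPM against 6.38 to 9.89 CPM (log2 fold change 0.85, adjusted p = 0.034). Jak2 did not pass (log2 fold change 0.32, adjusted p = 0.219). The 9 called genes were 16.7% of the list, against 3.89% of all genes tested. In the unfolded protein and amino acid stress lists, 6 of 42 genes rose and none fell (median 0.07), and 1 of the 6 was still called without KI 1 and 1 without KI 2. All named ones act in the endoplasmic reticulum or regulate it: Sdf2l1 at 27.8 and 26.1 CPM against 17.4 to 18.4 CPM (log2 fold change 0.60, adjusted p = 0.0146), Creld2 at 29.5 and 29.4 CPM against 18.8 to 21.4 CPM (log2 fold change 0.54, adjusted p = 0.0245), Manf at 93.1 and 74.8 CPM against 58.3 to 61.7 CPM (log2 fold change 0.49, adjusted p = 0.033), and the transcription factor Xbp1 at 228 and 273 CPM against 166 to 194 CPM (log2 fold change 0.47, adjusted p = 0.0471). The changes were 1.38- to 1.51-fold with narrow spread among WT livers. Atf4, of the amino acid response, did not pass (log2 fold change 0.10, adjusted p = 0.714). The 6 raised genes were 14.3% of the stress genes tested. The actin-binding gene Tmsb4x, abundant in leukocytes, rose as well (1131 and 1077 CPM against 608 to 806 CPM, log2 fold change 0.66, adjusted p = 0.026).

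A list of genes of pancreas, gut, adrenal, muscle and skin was read as a check on dissection. Of 16 tested, 3 were higher and 1 lower (18.8% and 6.25%, against 3.89% and 1.68% of all genes tested). Cpa1, a pancreatic carboxypeptidase, was at 3.18 and 4.18 CPM against 0.150 to 1.00 CPM (log2 fold change 2.72, adjusted p = 0.0227). Cyp11a1, the first enzyme of steroid hormone synthesis, was at 1.59 and 1.42 CPM against 0.0942 to 0.636 CPM (log2 fold change 2.18, adjusted p = 0.0867). The third was Ctsj, given above as known from the placenta, which is not one of these organs. Cela1, an elastase, was lower (12.6 and 10.9 CPM against 15.5 to 25.1 CPM, log2 fold change -0.71, adjusted p = 0.0894). Ctrb1, the pancreatic chymotrypsinogen, had no read in either KI liver, and its reads were in WT 2 and WT 4 with 2 in WT 5, a pattern unlike that of Cpa1. The summed level of the whole list was 198 to 214 CPM in the KI livers and 179 to 248 CPM in the WT livers.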

How the data were processed

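Liver RNA of 2 Jak1 KI and 5 WT mice was sequenced by the authors as paired ends (TruSeq kit, no strand marking), and their aligner was TopHat2 on the mm9 build. What the authors deposited for each library is a table of raw, unscaled read counts by gene symbol. The submitters' processing notes also name HTSeq and DESeq. The counting settings are not given in the sources used here. The 5 summary lines per file were left out. In the livers, 10.3% to 12.5% of the reads that aligned to 1 place fell on no annotated gene.

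The 7 liver libraries were filtered with filterByExpr and scaled by TMM. Differences were tested in edgeR 4.0.16 (R 4.3.3) by quasi-likelihood, with Benjamini-Hochberg adjustment over 14966 genes. The test was also run on simulated counts, in which only genes with ample reads were changed, and by large folds. That run does not cover genes with few reads or small changes. CPM used TMM-scaled totals. The 29 gene lists and the rules below were chosen with earlier results of these data known. Lists are described by counts and medians, with no test of their own. The genes named were Jak1, the 15 raised and 20 lowered called genes with the largest change (KI to one side of WT, mean of at least 1 CPM, no clone names), the 10 most abundant called genes per direction and, per list, up to 4 called members per direction and the first 2 listed. Others are said to be chosen after their values were seen, among them Stat3 and Cish where given. Some genes that these rules name are not reported here. 6 listed symbols (Ahsp, Ly6g, Iglc1, Ighm, Igkc and Muc16) were not found. Gene positions are from the GENCODE annotation of NCBIM37 (mm9) and promoter sequences from RefSeq (GRCm38.p6).

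The mice are separate animals, and p-values measure the spread among them. KI and WT livers with the same number did not deviate together (r of -0.0269 and -0.0932 across genes). With 2 KI mice, the deviations of KI 1 and KI 2 from their mean are mirror images. These r values therefore cannot show whether mice were paired or shared a litter. No pairing was used in the main test. The 14 alternatives were DESeq2 1.42.0 size factors, its Wald test, no filter beyond 1 count, the replicate number as a block, a Y-linked covariate, 1 fit of all 21 libraries, an adjusted p of 0.05 and each of the 7 mice left out. Precision is limited by the 2 KI mice and, for genes with few reads, by depth, and the floor of 3 counts covers counting error only. Figures used Python 3.11.15 with matplotlib 3.10.9.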

Additional observations from a re-analysis of the deposited data

Results flagged for a closer look

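Among the 5 WT livers, 1 library lay apart from the rest in 16 of 172 quantities examined, by the ratio of its gap to the whole range. Chance alone flags about 1 in 20 such groups. WT 5 was the lowest for Adamts4 (0.451 CPM, next 2.10), Gja5 (1.53, next 6.70) and Mecom (1.38, next 3.96), and the highest for Spi1 (56.1, next 45.4) and Car4 (0.150, next 0.0314). WT 4 was the highest for Cyp7a1 (429 CPM, next 144), Cpt1a (372, next 277), Glul (627, next 407) and Ctsj (0.471, next 0.116) and the lowest for Fasn (228, next 414). WT 1 was the highest for Ermap (409 CPM, next 325) and Il7r (13.7, next 10.2). WT 2 was the highest for Hamp (40.4 CPM, next 22.4) and was the single WT liver with reads of Magel2 (0.153). WT 3 was the highest for Thrsp (25.2 CPM, next 13.4) and the lowest for Clec4d (3.65, next 5.95).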

How the results depend on the processing

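The counts of 582 genes called higher and 251 called lower depended most on the KI mice and the error model. Leaving out 1 mouse at a time gave 49 to 784 higher and 7 to 506 lower genes, the lowest without KI 2 (49 and 7) and without KI 1 (197 and 35) and the highest without WT 4. A Y-linked covariate gave 288 and 104, 1 fit of all 21 libraries 151 and 97, and an adjusted p of 0.05 gave 302 and 81. DESeq2's Wald test gave 848 and 641. With DESeq2 size factors the counts were 575 and 241, and with no filter 563 and 237. With the replicate block they were 471 and 346, of which 370 and 127 were among the main calls, but the samples share only a number. Of 171 genes with a value in the text, 135 were called, and 82 lost that call without KI 1 and 110 without KI 2.

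Sign changes were confined, among these genes and alternatives, to 12 genes, of which only Tmem158 had been called. With the replicate block, the log2 fold changes of the other sign were 0.048 for Cpt1a, 0.27 for Cyp7a1, -0.037 for Elane, 0.075 for Hnf4a and 0.13 for Igf2. With the Y-linked covariate they were 0.14 for Des, 0.047 for G6pc and 0.064 for Myh11. With 1 mouse left out, values ranged from -0.42 to 5.98 for Tmem158, -0.21 to 0.024 for Cpt1a, -3.36 to 0.27 for Cyp1a2, -0.69 to 0.18 for Cyp7a1, -0.15 to 0.11 for Des, -0.85 to 0.16 for G6pc, -0.45 to 0.091 for Igf1 and -0.10 to 1.02 for Pck1. The causes were not tested.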

Other observations

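Some groups of genes that no list covered as such were read after the values above had been seen, so their counts are descriptions. Of 16 tested genes of basophils and mast cells, 9 were called higher (56.2%, against 3.89% of all genes tested) and none lower. The median log2 fold change was 1.06, and 4 members had a log2 fold change below 0. The members ranged from Mcpt8, Prss34 and Ccr3 to Csf2rb2. These genes were known to be raised when the list was written, so part of that share was fixed in advance. Hdc, which makes histamine, was counted at 38.5 and 48.7 CPM in KI 1 and KI 2 and 22.1, 23.9, 15.1, 24.2 and 17.9 CPM in WT 1 to WT 5 (log2 fold change 1.08, adjusted p = 0.0194), and Ms4a2, a chain of the high-affinity IgE receptor, at 2.18 and 3.01 CPM in KI 1 and KI 2 and 1.30, 1.53, 1.23, 1.26 and 0.993 CPM in WT 1 to WT 5 (log2 fold change 1.04, adjusted p = 0.09). KI and WT livers did not overlap in either gene. Of the 9 called genes, 6 were still called without KI 1 and 3 without KI 2.

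Of 14 tested β-catenin targets and pericentral hepatocyte genes, 2 were called lower (14.3%) and none higher (median -0.58). Without KI 1 and without KI 2, 1 and 0 of the 2 were still called (medians -0.25 and -0.83). These were Cyp2e1 and Axin2, a feedback gene of Wnt signalling. Axin2 was counted at 0.747 and 0.682 CPM in KI 1 and KI 2 and 2.83, 2.32, 4.81, 1.35 and 3.13 CPM in WT 1 to WT 5 (log2 fold change -2.01, adjusted p = 0.068). Glul, glutamine synthetase, the marker enzyme of pericentral hepatocytes, was not called (408 and 321 CPM in KI 1 and KI 2 and 359, 407, 365, 627 and 362 CPM in WT 1 to WT 5, log2 fold change -0.22, adjusted p = 0.663).

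Of 13 tested smooth muscle genes, 3 were called lower (23.1%) and none higher (median -0.51). None was called without KI 1 or without KI 2, where the medians were -0.82 and -0.10, and with the Y-linked covariate 1 was (median -0.13). Against the WT mean the list stood at -0.02 in KI 1 and -0.61 in KI 2, and from -0.55 to 0.67 in the WT livers. Myh11, smooth muscle myosin, was counted at 14.9 and 8.61 CPM in KI 1 and KI 2 and 8.41, 22.6, 6.04, 18.8 and 20.8 CPM in WT 1 to WT 5 (log2 fold change -0.38, adjusted p = 0.732). Its lowest WT values were in WT 1 and WT 3, as for the duct keratin Krt19. Galnt16, Aoc3, Adamts16, Ehf, Pgm5, Fam198a, Tnnt2, Prss35 and Spp1 are all among the genes that fell most. They too had their lowest WT values in WT 1 and WT 3.

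Stat3, the main mediator of IL-6 signals and a target of its own pathway, rose (186 and 189.9 CPM in KI 1 and KI 2 and 139.8, 142, 134, 152 and 131 CPM in WT 1 to WT 5, log2 fold change 0.43, adjusted p = 0.0377). Cish, a feedback gene of STAT5, was not called (35.05 and 37.2 CPM in KI 1 and KI 2 and 42.9, 35.6, 36.9, 40.8 and 39.9 CPM in WT 1 to WT 5, log2 fold change -0.12, adjusted p = 0.577).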
